A study of Rattus norvegicus with 63 samples.

Results

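The liver protein response to cyproterone acetate (CPA), a synthetic steroid that blocks the androgen receptor and activates the progesterone receptor, was described from reverse-phase protein arrays. All 158 analytes of the array were taken in 3 rats given CPA and in the 3 corn oil controls of the same control group, 6 of the 63 animals profiled. All 6 were male Wistar Hanover rats, 8 to 10 weeks old at the start, dosed by gastric gavage for 14 days. The CPA rats received 100 mg/kg per day, and the controls (corn oil control group 4) received corn oil without compound. No transgene or deletion was carried by any group. According to the study's methods, the treated animals that were profiled had been selected among the dosed animals for at least some liver change in histopathology, so they do not stand for all dosed rats. A further 3 corn oil controls dosed for 7 days (control group 3) served as a background, and 3 rats each given piperonyl butoxide (PBO, 1200 mg/kg per day for 3 days), phenobarbital sodium (PB, 14 days) or dehydroepiandrosterone (DHEA, 600 mg/kg per day for 14 days) served for comparison. The dose of PB was 80 mg/kg per day, taken from the methods since the labels give none. Each of these had 3 controls given methylcellulose for 14 days (control group 5 for PBO, 6 for PB and 1 for DHEA), and sex, strain, age range and route were the same in all of these animals. In the study, CPA was among the compounds whose class, genotoxic or non-genotoxic liver carcinogen, was treated as undefined. From the combined molecular profiles the study then classified it as non-genotoxic. It reported that protein or miRNA signatures alone gave inconsistent results for some samples of CPA and thioacetamide.

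On such an array, a lysate of whole liver is spotted and each analyte is read with a primary antibody and a fluorescent secondary antibody. The value is a relative fluorescence intensity (RFI) after subtraction of the local background and normalization over the array. Of the 158 analytes, 104 measured a total protein and 54 a modified form, in most cases a phosphorylated site, with 101 gene symbols in all. Several symbols had numbered entries (CYP3A4_1 and CYP3A4_2), and which antibody stands behind a number is not given in the sources used here. The symbols are human ones, so an entry named CYP3A4 in rat liver stands for whatever rat protein its antibody bound. Levels were compared between animals within an analyte and never between analytes. In a whole liver lysate, fewer cells of a type and less protein per cell cannot be told apart.

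In the liver, steroids and other foreign compounds are sensed by the nuclear receptors PXR and CAR, which pair with RXRA and switch on genes of drug metabolism. PXR is best known for the CYP3A cytochromes P450 and CAR for the CYP2B ones, with overlap between them. The P450 enzymes oxidise their substrates with electrons delivered by cytochrome P450 reductase (POR). CPA is a long-known inducer of rat liver P450 enzymes and a mitogen of rat hepatocytes.

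The promoters of the rat Cyp3a genes are described here since the analyte that changed most, CYP3A4_2, is named for the CYP3A family. Whether they had a part in that change was not tested. PXR paired with RXRA binds, as background knowledge, 2 copies of the hexamer AGTTCA that run in the same direction with 3 bases between them. Both strands of the RefSeq promoter windows of build GRCr8, each with 250 bases before and 50 bases after a transcription start, were searched for this repeat. It occurred in 2 of 33469 windows (0.00598%), those of Cyp3a2 and Cyp3a23-3a1, while at least 1 AGTTCA on either strand occurred in 14.5% of windows. The other Cyp3a windows, of 12 in all from 8 gene symbols, did not hold it. The 250 bases before each start are given on the transcribed gene's sense strand, with the repeat, which lies on the opposite strand, in capitals. The Cyp3a2 stretch is chr12:14343858-14344107 and the Cyp3a23-3a1 stretch is chr12:14398804-14399053, both on the minus strand and both upstream of the first exon.
Cyp3a2: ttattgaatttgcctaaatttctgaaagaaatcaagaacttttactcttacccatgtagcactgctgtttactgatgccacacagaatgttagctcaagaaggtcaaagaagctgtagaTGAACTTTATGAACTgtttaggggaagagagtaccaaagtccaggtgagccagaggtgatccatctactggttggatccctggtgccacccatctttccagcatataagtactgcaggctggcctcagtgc
Cyp3a23-3a1: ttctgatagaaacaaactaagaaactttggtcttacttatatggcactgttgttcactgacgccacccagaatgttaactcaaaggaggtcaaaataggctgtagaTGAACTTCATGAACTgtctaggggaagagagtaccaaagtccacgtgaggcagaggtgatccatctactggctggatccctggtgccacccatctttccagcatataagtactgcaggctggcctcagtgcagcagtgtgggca
The repeat spanned bases 131 to 117 before the start in Cyp3a2 and bases 144 to 130 before it in Cyp3a23-3a1. Aligned on the repeat without gaps, the 2 stretches were identical at 165 of 237 bases (69.6%), so they are not independent occurrences. A match is a description of the letters, and binding was not measured here. Which of the Cyp3a proteins the CYP3A4 and CYP3A5 entries bound is not given in the sources used here.

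One control animal stood apart before any comparison. Over all analytes, control animal 3 correlated with the other corn oil controls at 0.90 to 0.92, whereas control animals 1 and 2 correlated with each other at 0.977 and the 3 CPA animals among themselves at 0.974 to 0.980. After removal of its median, 21 of its analytes lay more than 2-fold from the median of the other corn oil controls, against 2 to 4 analytes in each of those others. Its CCND1 (7.74 against 1.86 and 1.88 RFI), MAPK3 and RPS6KB1_P-T389 were far above the other controls and its CYP2C8 far below, so called results and others described at length are given without it as well. The CPA animals were also slightly brighter as a group, with a median log2 fold change over all analytes of 0.23, and 134 of the 158 analytes were nominally higher. This did not hold for each animal. The median log2 RFI was -0.70, -1.05 and -0.70 in CPA animals 1 to 3 and -0.94, -0.99 and -1.18 in control animals 1 to 3. Values were therefore also computed with the median of each animal removed, called the centred scale here.

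Compared with their controls, CPA livers had 8 analytes higher and none lower at an adjusted p of 0.05 in limma, 5.06% of the 158 tested. Those described here were the P450 entries CYP3A4_2, CYP2B6_1 and CYP2C8, the reductase POR, beta-catenin phosphorylated at T41/S45, the survival protein BCL2L1 and the kinase MAP2K4. Without control animal 3, 4 of the 8 remained (CYP3A4_2, CYP2B6_1, POR and beta-catenin P-T41/S45) and no other analyte passed, whereas without control animal 1 there were 19 calls. Leaving out CPA animal 1 or CPA animal 3 gave 5 calls each. With the replicate number as a block, in a fit to the 6 animals alone, there were 4 calls. Among them were CYP3A4_2, CYP2B6_1 and beta-catenin P-T41/S45. The same 6 animals without the block gave 3 calls, and POR, CYP2C8, BCL2L1 and MAP2K4 passed in neither of these fits. On the centred scale 6 analytes were higher and 3 lower. The 3 CPA values lay wholly above or below the 3 control values in 30 analytes (19% of 158), above in 29 and below in 1. Before adjustment, 28 analytes had p below 0.05.

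The largest difference of the array was in CYP3A4_2, an entry for the CYP3A enzymes, which oxidise many steroids and drugs. The 3 CPA livers gave 41.7, 43.3 and 42.9 RFI and the controls 1.14, 0.865 and 1.14 RFI. The groups were far apart, the CPA animals differed among themselves by little, and they held the 3 highest values of all 63 animals. The mean was 42.6 ± 0.845 in CPA and 1.05 ± 0.157 in controls (SD, n = 3 each), a 41.1-fold difference with a 95% confidence interval of 26.3 to 64.2. On the log2 scale this was 5.36 ± 0.32 (SE, limma adjusted p = 4.34e-19), and it passed under each of the 14 alternatives tried. The other CYP3A entries did not follow. CYP3A4_1 was 5.46, 5.59 and 7.43 RFI in CPA against 4.92, 5.64 and 7.44 RFI in controls, overlapping throughout, with a log2 fold change of 0.05 and a 95% interval of the fold from 0.73 to 1.46. CYP3A5 was 0.56, 0.559 and 0.622 RFI against 0.425, 0.685 and 0.876 RFI, again overlapping (log2 fold change -0.13, 0.10 without control animal 3, interval of the fold 0.709 to 1.18). Both intervals lay far below the fold of CYP3A4_2.

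**Figure D1:**
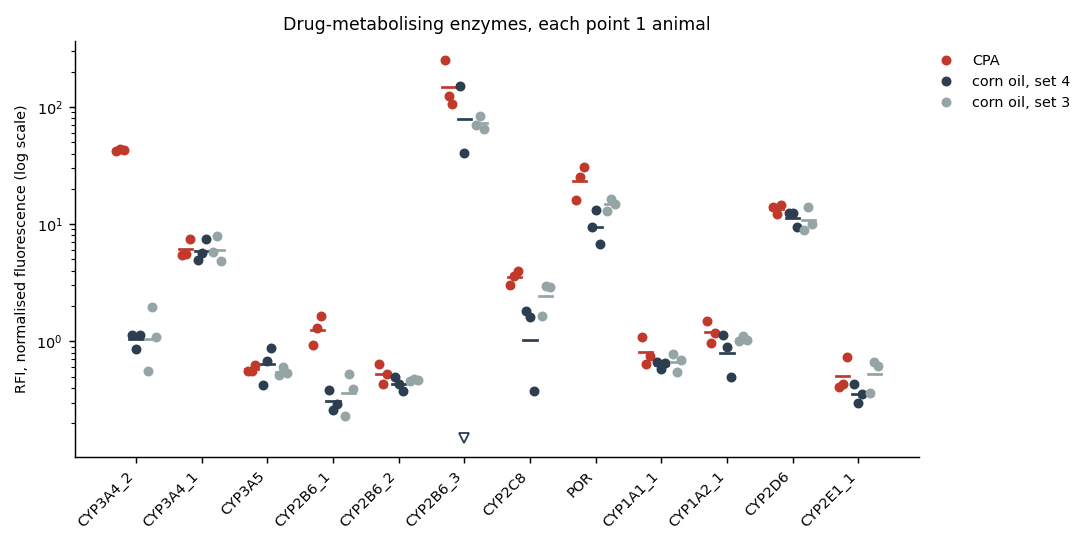
RFI on a log axis for 12 drug-metabolising enzyme analytes; each point is 1 animal (CPA red, corn oil control group 4 dark blue, control group 3 grey) and bars are geometric means. The open triangle marks the CYP2B6_3 value of control animal 3, which was below 0 and had no log. The CPA points of CYP3A4_2 and CYP2B6_1 lie above all 6 corn oil controls, and those of CYP3A4_1 and CYP3A5 lie among them.

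CYP2B6_1, an entry for the CYP2B enzymes that are the classical targets of phenobarbital, rose 4.11-fold. The CPA values were 0.935, 1.29 and 1.66 RFI and the control values 0.383, 0.26 and 0.289 RFI. All CPA animals lay above all controls, and above the highest control of group 3 at 0.528 RFI. On the log2 scale the difference was 2.04 ± 0.33 (SE, limma adjusted p = 1.54e-05), and it too passed under all 14 alternatives. CYP2B6_2 showed 0.644, 0.433 and 0.528 RFI against 0.494, 0.43 and 0.379 RFI, a log2 fold change of 0.29 that did not pass (limma adjusted p = 0.279). CYP2B6_3 was the most variable P450 entry, at 253, 124 and 105 RFI in CPA and 150, 40.8 and -3.58 RFI in controls, where the value below 0 entered the fit as missing. Its groups overlapped and its log2 fold change of 0.93 did not pass (limma adjusted p = 0.332), although CPA animal 1 had the highest CYP2B6_3 of the 63 animals.

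POR, which supplies electrons to all microsomal P450 enzymes, rose 2.45-fold. Its values were 16.1, 25.1 and 30.8 RFI in CPA and 9.46, 13.3 and 6.75 RFI in controls, with no overlap. The lowest CPA animal, however, lay just below the highest of the group 3 controls, 16.5 RFI. POR differed by 1.29 ± 0.25 (log2, SE, limma adjusted p = 0.000277) and by 1.05 without control animal 3 (adjusted p = 0.0141). It did not pass in the fit to the 6 animals alone, with the replicate block (adjusted p = 0.176) or without it. CYP2C8, an entry for the CYP2C enzymes, which in the rat include sex-dependent steroid hydroxylases, gave 3.03, 3.61 and 3.97 RFI against 1.81, 1.6 and 0.374 RFI. The groups did not overlap, but control animal 3 was far below the others, and the group 3 controls reached 2.98 RFI. The log2 fold change of 1.77 ± 0.41 (SE, limma adjusted p = 0.00266) fell to 1.05 without that animal (adjusted p = 0.257), and the call was also lost against all 6 corn oil controls (adjusted p = 0.0569) and with the replicate block (adjusted p = 0.34).

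Of the 16 entries for drug-metabolising enzymes, 4 passed the test, all higher, against 5.06% of all analytes, and the median log2 fold change of the list was 0.47 against 0.23 over all analytes. The 12 that did not pass included CYP1A1, CYP1A2, CYP2D6 and CYP2E1 entries and the glucuronidating enzyme UGT1A1. CYP1A2_1, an entry for an enzyme controlled by the aryl hydrocarbon receptor, was 1.5, 0.974 and 1.18 RFI in CPA against 1.14, 0.896 and 0.496 RFI, with overlap and a log2 fold change of 0.59 (limma adjusted p = 0.215), which was 0.24 without control animal 3 and 0.85 without control animal 1, where it passed. The other CYP1A entries, CYP1A1_1, CYP1A1_2 and CYP1A2_2, had log2 fold changes of 0.35, 0.25 and 0.07. CYP2D6 stood at 0.26, CYP2E1_1 at 0.50 and CYP2E1_2 at 0.77, the last with 1 control value below 0. With 1 animal left out, CYP2E1_1 ran from 0.24 to 0.66 and CYP2E1_2 from 0.022 to 1.52. CYP4F2, a fatty acid hydroxylase that was in no list, stood at 0.17. None of these CYP1A, CYP2D6, CYP2E1 and CYP4F2 entries separated the CPA animals from the controls.

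Beta-catenin (CTNNB1) drives proliferation and the pericentral pattern of liver enzymes, and phosphorylation at T41/S45 by CK1 and GSK3B marks it for degradation. The T41/S45 signal rose 2.13-fold. It was 0.621, 0.405 and 0.438 RFI in CPA and 0.249, 0.23 and 0.2 RFI in controls, with every CPA animal above all 6 corn oil controls, whose highest was 0.376 RFI. Among the 63 animals, the CPA animals ranked 1, 5 and 4 for this signal. This log2 difference of 1.09 ± 0.23 (SE, limma adjusted p = 0.000931) was 1.00 without control animal 3 (adjusted p = 0.0141). It passed under 13 of the 14 alternatives, with the exception of the fit to the 6 animals alone (adjusted p = 0.0559). Total CTNNB1 was 2.38, 2.32 and 2.41 RFI against 1.86, 1.84 and 3.18 RFI, with overlap through control animal 3 (log2 fold change 0.10), and the S675 form stood at 0.24.

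The remaining members of the beta-catenin list did not pass. Glutamine synthetase (GLUL), a beta-catenin target confined to pericentral hepatocytes, was 0.542, 0.23 and -1.48 RFI in CPA and 1.14, 0.697 and -0.66 RFI in controls. Both groups thus had 1 value below 0 that was treated as missing, the groups overlapped, and the log2 fold change of -1.34 ± 0.90 (SE, limma adjusted p = 0.378) rested on 2 animals in each group. GSK3B stood at 0.14, GSK3B_P-S9 at -0.10, APC at -0.36 and MYC at 0.36, and without control animal 3 at -0.0041, -0.36, -0.39 and 0.18. CCND1, the cyclin of G1 entry, stood at -0.54, which turned to 0.14 without control animal 3. Of the 10 entries of the list, 1 was called, not far from the 5.06% of all analytes, and the median log2 fold change was 0.12.

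BCL2L1, which protects cells from mitochondrial apoptosis, was 1.29, 1.3 and 1.3 RFI in CPA against 1.03, 0.862 and 0.427 RFI in controls. The CPA animals were nearly identical and lay above the controls of their group, and also just above the highest group 3 control at 1.26 RFI. The log2 fold change of 0.84 ± 0.23 (SE, limma adjusted p = 0.0199) fell to 0.46 without control animal 3 (adjusted p = 0.528), and the replicate block gave an adjusted p of 0.387. It passed in 6 of the 14 alternatives. The other apoptosis entries (BAX, BIK, MCL1 and AVEN) did not pass. BAX, which promotes apoptosis, was 0.548, 0.537 and 0.563 RFI against 0.495, 0.46 and 0.481 RFI, separated but by a log2 fold change of 0.20 that fell to -0.02 on the centred scale.

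Of 14 ERK cascade entries described here none was called in either direction, and their median of 0.09 lay below that of all analytes. MAP2K2, an activating kinase of ERK, was 0.295, 0.272 and 0.333 RFI in CPA against 0.261, 0.263 and 0.249 RFI. It was separated but stood at a log2 fold change of 0.22, and at -0.01 on the centred scale. MAPK3, that is ERK1, passed on the centred scale alone of these 2 scales (-0.89, limma adjusted p = 0.0174, against -0.67 and 0.145 uncentred). Its values were 0.791, 1.02 and 0.881 RFI in CPA and 0.86, 0.984 and 3.38 RFI in controls, so the groups overlapped and the difference lay in control animal 3. Without that animal the uncentred log2 fold change was -0.04. MAPK3 also passed in settings that kept control animal 3. These were the study's log2 ratio table (-0.85) and the fits without control animal 1 (-1.03) or control animal 2 (-0.93). The activated form MAPK3_P-T202/Y204 stood at 0.24, and at -0.20 without control animal 3.

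Among the stress kinases, MAP2K4, which activates JNK, was 0.583, 0.478 and 0.547 RFI in CPA and 0.465, 0.38 and 0.331 RFI in controls. The groups were separated by a narrow gap. The log2 fold change of 0.46 ± 0.13 (SE, limma adjusted p = 0.0235) was 0.24 on the centred scale (adjusted p = 0.165) and 0.35 without control animal 3 (adjusted p = 0.371), and the block gave an adjusted p of 0.387. It passed in 5 of the 14 alternatives, the fewest of the 8 called analytes. MAPK14, the p38 alpha kinase, was the sole analyte with all CPA animals below all controls, at 0.372, 0.341 and 0.364 RFI against 0.454, 0.452 and 0.677 RFI. Its log2 fold change of -0.53 ± 0.19 (SE) did not pass (limma adjusted p = 0.0825), while on the centred scale it was -0.75 (adjusted p = 0.00185) and without control animal 3 it was -0.34 (uncentred, adjusted p = 0.61), and all 3 CPA animals also lay below the lowest group 3 control at 0.406 RFI. MAPK14 also passed in the study's log2 ratio table (-0.84) and without control animal 1 (-0.63). MAP3K7 was separated at 0.19 (-0.03 centred), and JUN overlapped, at 0.287, 0.24 and 0.298 RFI against 0.276, 0.182 and 0.389 RFI (log2 fold change 0.02). Of the 9 stress kinase entries 1 was called, not far from the 5.06% of all analytes.

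**Figure D2:**
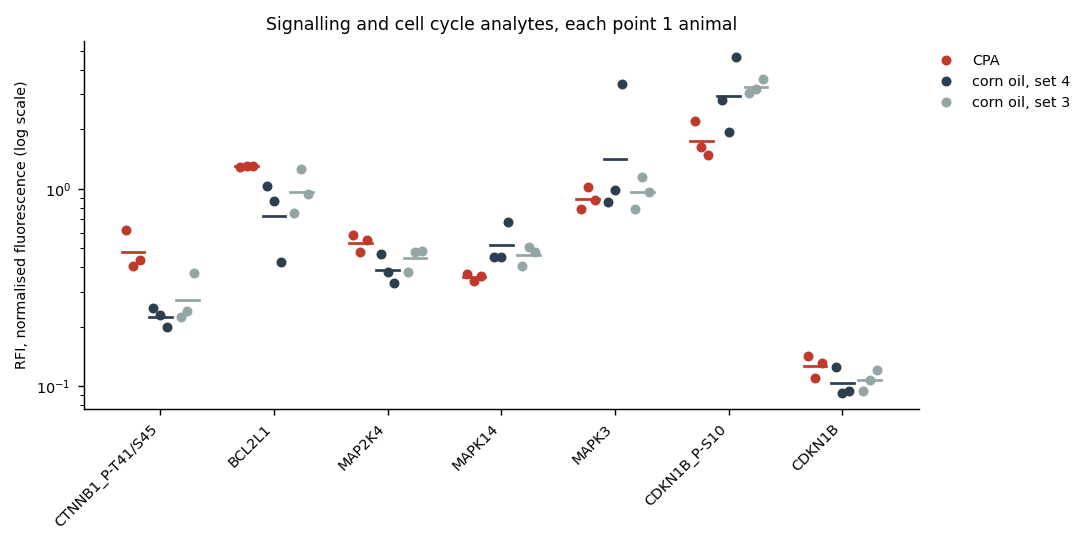
RFI on a log axis for 7 signalling, apoptosis and cell cycle analytes; each point is 1 animal (CPA red, corn oil control group 4 dark blue, control group 3 grey) and bars are geometric means. The CPA points of beta-catenin P-T41/S45 lie above all 6 corn oil controls and those of MAPK14 below all 6, and the single high MAPK3 point is control animal 3.

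CDKN1B (p27) restrains the cyclin-dependent kinases, and phosphorylation at S10 favours its export from the nucleus. CDKN1B_P-S10 was 2.21, 1.63 and 1.49 RFI in CPA against 2.83, 1.95 and 4.61 RFI in controls. CPA animal 1 lay above control animal 2, so the groups overlapped. The log2 fold change of -0.75 ± 0.27 (SE, limma adjusted p = 0.107) passed on the centred scale (-0.97, adjusted p = 0.0141) and against all 6 corn oil controls (-0.83, adjusted p = 0.0294), and was -0.42 without control animal 3 (adjusted p = 0.61). In the study's own log2 ratio table, however, the entry of this name stood at 0.71 and the entry CDKN1B at -1.06 (limma adjusted p = 0.0435), the reverse of the per-animal files. The deviations of the treated animals from their group means in the 2 sources correlated at Spearman 0.37 for CDKN1B_P-S10 and 0.01 for CDKN1B, against a median of 0.55 over all analytes (45 animals that share the arrays, given as a description). In all, 22 of the 158 analytes had such a correlation below 0.2, so low values were not confined to CDKN1B. Which source holds these entries under their right names cannot be told apart here, so no direction is given for either form. Total CDKN1B stood at 0.30 and CDKN1B_P-T187 at 0.05 in the per-animal values.

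None of the 15 cell cycle entries passed in either direction, and their median was 0.28. The proliferation marker MKI67 was 0.333, 0.273 and 0.309 RFI in CPA against 0.323, 0.254 and 0.339 RFI, with full overlap and a log2 fold change of 0.00. The mitotic kinase AURKA (0.35) and the cyclin CCNE2 (0.37) had CPA animals above all controls of group 4 without passing the test. Of all 158 analytes, 29 lay above in this way, and on the centred scale the cell cycle median was 0.06.

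Apart from the hepatocyte markers, the other lists had no called member. The 11 entries of JAK-STAT signalling, which carries cytokine and growth hormone signals, had a median of 0.35, between 0.20 and 0.47. Over all analytes 134 of 158 stood above 0, and 30 (19%) were separated, 29 of these with CPA above. Without control animal 3 the STAT5A_P-Y694 value of 0.39 turned to -0.06 and that of STAT3_P-S727 moved from 0.47 to 0.21. STAT5A (0.35), STAT3_P-Y705 (0.35) and JAK2_P-Y1007/Y1008 (0.23) were separated without passing the test. Among 10 receptor and ligand-binding entries the median was 0.28, with EGFR_P-Y845 (0.39) and MET (0.36) separated. The 11 AKT, mTOR and S6 entries described here ranged from -0.90 to 0.57 with a median of 0.08. MTOR was separated, at 0.692, 0.754 and 0.854 RFI against 0.565, 0.554 and 0.558 RFI (0.45), and did not pass. The lower end was RPS6KB1_P-T389, which turned to 0.12 without control animal 3. On the centred scale the medians were 0.13 for JAK-STAT, 0.06 for the receptor and ligand-binding entries and -0.14 for the AKT, mTOR and S6 entries.

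In the remaining lists too, separation is to be read beside the 19% of all analytes that were separated. The 5 energy and cAMP kinase entries had a median of 0.25 (0.03 centred), with PRKACA_P-T197 (0.25) and GAPDH (0.35) separated. The 11 histone and chromatin entries had a median of 0.28 (0.06 centred), with histone H3 phosphorylated at S10 separated at 0.30. The 5 nuclear receptor and hepatocyte factor entries had a median of 0.18 (-0.04 centred). Among them PPARA_1, an entry for the receptor of peroxisome proliferators, was separated at 0.39 (limma adjusted p = 0.126). HNF4A, which marks hepatocytes, was present in every animal at 1.41 to 1.82 RFI and differed by 0.04, and by -0.05 without control animal 3. Among 12 hepatocyte marker entries, 3 passed, against 5.06% of all analytes, and these were the P450 entries already named. The entries of this list ranged from -1.34 (GLUL) to 5.36 (CYP3A4_2). The 2 NF-kB entries, both of the inhibitor NFKBIA, stood at 0.10 and 0.32. ACTB, a loading protein, was 0.155, -0.0265 and 0.495 RFI in CPA against 2.27, 0.927 and 0.441 RFI, overlapping and not called (log2 fold change -1.82, limma adjusted p = 0.396). The overlap of ACTB lay in control animal 3, without which the log2 fold change was -2.39 and still not called. The CPA value below 0 was treated as missing. No marker of other liver cell types in the list drawn up for them was on the array, so the part of such cells was not tested.

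**Figure D3:**
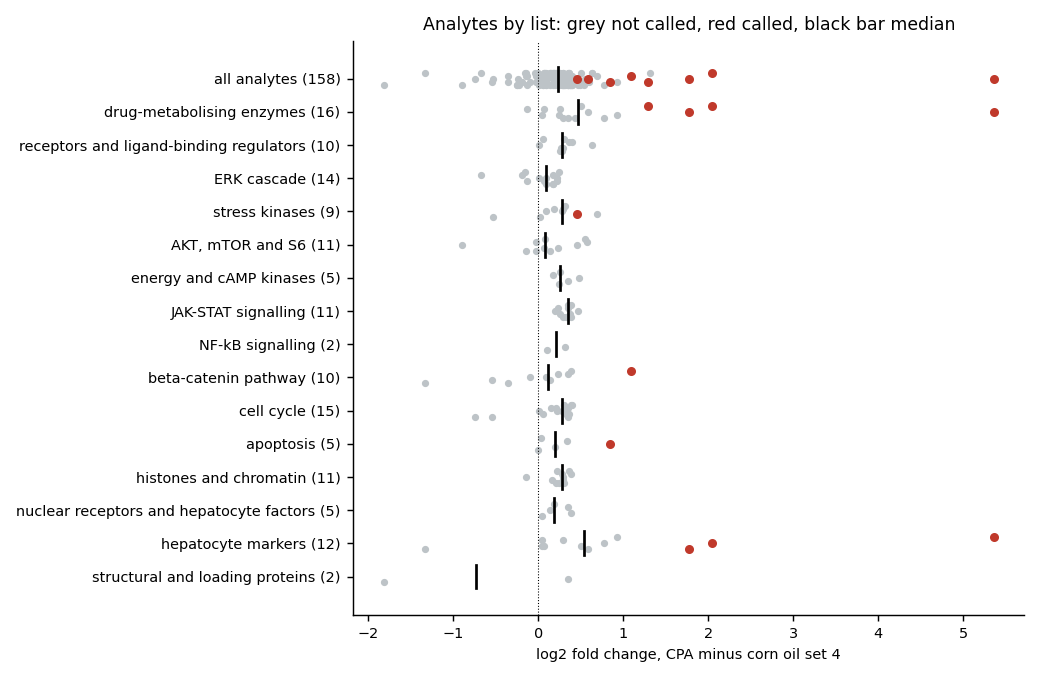
Log2 fold change (CPA minus corn oil control group 4) of every analyte, by list, with the number of entries in brackets; red points passed the limma test, grey points did not, and black bars are list medians. The all-analyte median lies at 0.23, and 4 of the 8 called analytes are in the list of drug-metabolising enzymes.

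Because modified and total signals of a protein were measured in the same animals, the log2 ratio of the modified to the total signal was compared as well, for all 49 pairs that shared a symbol. A shift of a whole animal's brightness cancels in this ratio. In all, 6 pairs passed (12.2% of 49, adjusted over the 49), 3 higher and 3 lower in CPA. None passed with the replicate block, which was fitted to the 6 animals alone. Without control animal 3, 1 pair was left, and without CPA animal 3, 2 pairs passed.

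That pair was MAPK14 phosphorylated at T180/Y182, its activating site, over total MAPK14. The log2 ratio was 1.23, 1.04 and 1.12 in CPA against -0.75, 0.78 and -0.31 in controls. The CPA animals lay close together above all controls, which were widely spread, and the difference was 1.22 ± 0.26 (SE, limma adjusted p = 0.00104), and 1.11 without control animal 3 (adjusted p = 0.0182). The phosphorylated signal itself overlapped between the groups, at 0.871, 0.699 and 0.788 RFI against 0.27, 0.778 and 0.545 RFI.

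Beta-catenin P-T41/S45 over total CTNNB1 was higher by 0.99 ± 0.28 (log2, SE; limma adjusted p = 0.0166). The log2 ratios were -1.94, -2.52 and -2.46 in CPA and -2.91, -3.00 and -3.99 in controls, separated, with control animal 3 lowest. Among the others, SMAD2_P-S245/S250/S255 over SMAD2 stood at 0.73 with overlap (limma adjusted p = 0.0461), and CDKN1B_P-S10 over CDKN1B at -1.05, to which the doubt on the naming of these entries applies. Without control animal 3, these differences were 0.65 for beta-catenin, 0.31 for SMAD2 and -0.66 for CDKN1B, and none passed.

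**Figure D4:**
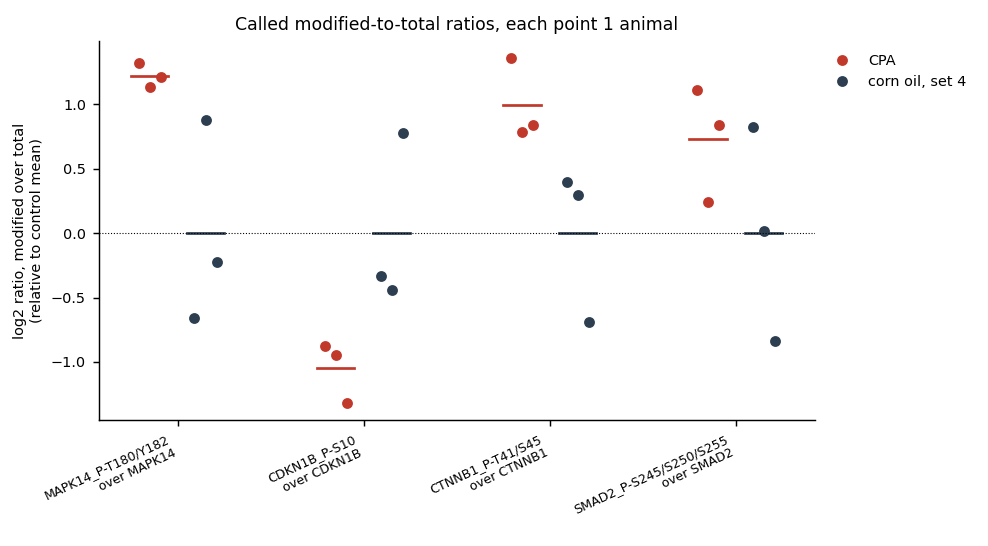
Log2 ratio of modified to total signal, relative to the mean of the 3 controls, for 4 of the 6 pairs that passed; each point is 1 animal (CPA red, corn oil control group 4 dark blue) and bars are means. Groups are separated in 3 pairs and overlap for SMAD2, and control animal 3 lies far from the other controls in the CDKN1B and beta-catenin pairs.

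The 2 corn oil control groups, dosed for 7 and 14 days, gave a background for differences between sets of untreated animals. No analyte was called between them by limma (0% of 158, smallest adjusted p = 0.325), and none when limma also modelled the trend of variance with level, and 18 had an unadjusted p below 0.05. Their values did not overlap in 6 of the 158 analytes, against 30 (19%) for CPA and its controls. Of those 30, CPA lay above in 29 and below in 1, on the uncentred scale, where the CPA group was brighter by a median of 0.23 (log2). How far that brightness accounts for the 30 was not tested.

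The CPA response was set beside those of PBO, PB and DHEA, each against its own methylcellulose controls. Doses and vehicle differed, and PBO was given for 3 days while its controls were dosed for 14 days, so a difference between compounds cannot be told apart from these. CPA and PBO differed in 1 analyte (0.633% of 158). CYP1A2_1 rose in PBO livers to 4.63, 7.64 and 8.01 RFI from 1.32, 1.17 and 1.08 RFI, a log2 fold change of 2.47, against 0.59 for CPA. The difference, CPA minus PBO, was -1.88 ± 0.37 (SE, limma adjusted p = 0.000916). For CYP3A4_2, PBO livers gave 38.8, 40.0 and 35.6 RFI against 0.999, 0.881 and 1.20 RFI, and the difference of the 2 log2 responses was 0.14 with a 95% interval of -0.77 to 1.05. For CYP2B6_1 the difference was -0.88 (-1.83 to 0.06) and for POR -0.20 (-0.91 to 0.52), both not called.

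The comparison with PB gave 16 analytes, all with the CPA response above the PB response (10.1% of 158), but the median difference over all analytes was 0.52. On the centred scale 4 were higher and 5 lower, and without control animal 3 there were 3 calls on the uncentred scale. The 4 higher on the centred scale included CYP3A4_2, BCL2L1 and PRKAA1, the catalytic subunit of the energy sensor AMPK. In PB livers CYP3A4_2 was 9.32, 11.2 and 10.1 RFI against 1.94, 2.60 and 1.89 RFI, all far below the CPA animals, and the CPA response was higher by 3.10 ± 0.45 (log2, SE; limma adjusted p = 2.28e-06) and by 2.47 on the centred scale. In the study's log2 ratio table the same difference was 1.71 and did not pass (adjusted p = 0.284). CYP2B6_1 ran the other way, 3.17, 3.20 and 3.81 RFI in PB, a log2 response of 2.92 against 2.04 for CPA, and the difference of -0.88 passed on the centred scale alone of these 2 scales (-1.51, limma adjusted p = 0.0362). The cyclin CCNE2 also had the higher response in PB, 0.94 against 0.37 for CPA. Its difference of -0.57 was not called uncentred (limma adjusted p = 0.142). On the centred scale the CCNE2 difference was -1.20 (limma adjusted p = 8.06e-05). In the study's log2 ratio table it was -1.49 (limma adjusted p = 0.00521), the only call against PB there. Beta-catenin P-T41/S45 differed by 1.43, and the call was lost on the centred scale.

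DHEA, which like CPA is a steroid, differed from CPA in 18 analytes (11.4% of 158), 17 with the higher response in CPA and 1 with the lower, and in 6 and 2 on the centred scale. The median difference over all analytes was 0.43, and without control animal 3 there were 4 calls. CYP3A4_2 was 3.49, 1.66 and 3.42 RFI in DHEA livers against 1.15, 1.39 and 1.31 RFI, a smaller rise than in CPA by 4.28 ± 0.45 (log2, SE; limma adjusted p = 3.36e-10). CYP2C8 was 1.04, 1.51 and 1.58 RFI in DHEA against 2.77, 3.26 and 2.46 RFI, so the 2 responses had opposite signs and differed by 2.83 (limma adjusted p = 0.0011), and by 2.10 without control animal 3 (adjusted p = 0.0145). MAP2K1, the ERK kinase MEK1, rose in DHEA livers to 355, 119 and 156 RFI from 31.7, 100 and 31.2 RFI and stood at -0.16 in CPA, a difference of -2.17 (limma adjusted p = 0.00446). RPS6_P-S235/S236, a ribosomal protein site downstream of mTOR, differed by 2.73 and CYP2B6_3 by 2.19, and both calls were lost on the centred scale. Without control animal 3 both were lost as well, at 1.87 (limma adjusted p = 0.183) and 2.19 (limma adjusted p = 0.0695).

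**Figure D5:**
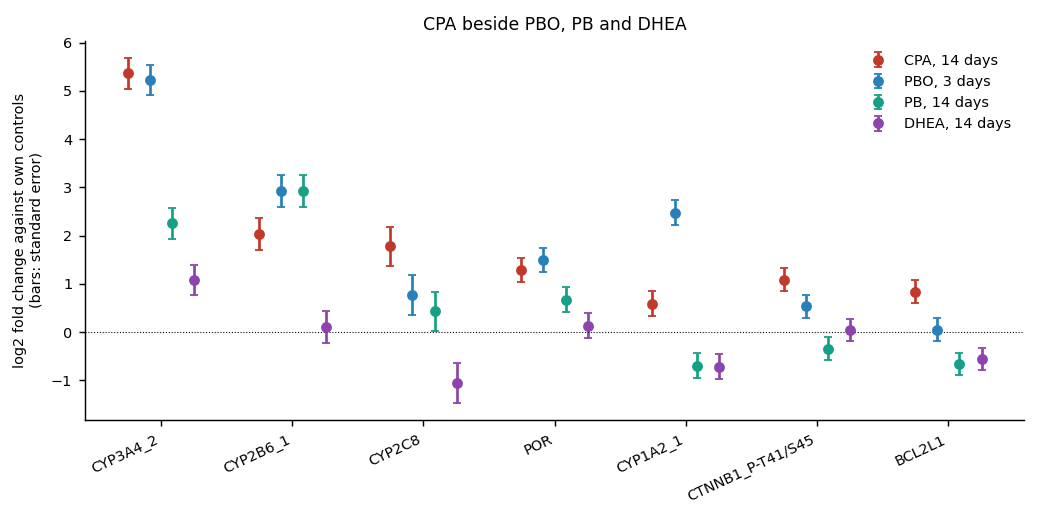
Log2 fold change of 7 analytes against each compound's own controls for CPA, PBO, PB and DHEA; points are limma estimates and bars are standard errors (n = 3 treated and 3 control animals each). CPA and PBO lie together for CYP3A4_2 and apart for CYP1A2_1, and CPA lies above PB and DHEA for CYP3A4_2.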

How the data were processed

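Liver protein was measured on ZeptoMARK reverse-phase protein arrays in 63 rats. The authors adjusted lysates to equal protein, corrected spots for local background, normalized the array and took weighted means of replicate spots. The deposited per-animal values are an intensity (RFI), and the deposited series table holds log2 ratios to the control median with imputed missing values. RFI at or below 0 (5 values in the 6 animals) were taken as missing and the rest as log2. A linear model with 1 mean per group was fitted to all 63 animals in limma 3.58.1 (R 4.3.3), with Benjamini-Hochberg adjustment over 158 analytes and a threshold of 0.05. Named analytes were all called ones (uncentred or centred), all CYP entries, GLUL, JUN and CDKN1B, up to 4 separated members per list by fold change, and up to 5 called per difference between compounds. Some analytes are not reported here, and list counts leave them out. Others are named as context, chosen after their values were seen. Members and lists were chosen with earlier results of these data known, and the modified-to-total ratios were added after the values had been seen. CPA and control animals of the same number deviated together (correlations 0.31, 0.22 and 0.16), a pairing that comes from replicate numbers alone. The number of arrays limits the precision. Promoters came from RefSeq (GRCr8).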

Additional observations from a re-analysis of the deposited data

Results flagged for a closer look

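The CPA response differed from that of another compound by a test of the difference itself in the results below, all with limma's adjusted p over 158 analytes. Against PBO this held for 1 analyte, CYP1A2_1 at -1.88 (log2, CPA minus PBO). Against PB it held for 16 analytes, with the differences 3.10 for CYP3A4_2, 1.51 for BCL2L1 and 1.43 for beta-catenin P-T41/S45. Against DHEA it held for 18 analytes, with 4.28 for CYP3A4_2, 2.83 for CYP2C8, 2.73 for RPS6_P-S235/S236, 2.19 for CYP2B6_3 and -2.17 for MAP2K1. The calls of RPS6_P-S235/S236 and CYP2B6_3 against DHEA were lost on the centred scale and without control animal 3. That of beta-catenin P-T41/S45 against PB was lost on the centred scale. In the study's log2 ratio table none of the differences from PB named here passed. They were 1.71 for CYP3A4_2, 0.91 for BCL2L1 and 1.20 for beta-catenin P-T41/S45 (limma adjusted p = 0.284, 0.315 and 0.523). RPS6_P-S235/S236 and CYP2B6_3 against DHEA did not pass there either. CYP1A2_1 against PBO and CYP3A4_2, CYP2C8 and MAP2K1 against DHEA passed there.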

How the results depend on the processing

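The CPA comparison called 3 analytes in a fit to its 6 animals, 5 against all 6 corn oil controls and 4 with the replicate block, and 4 to 19 when 1 animal was left out (4 without control animal 3, 19 without control animal 1). In the series table the CPA comparison called 8 analytes, 5 higher and 3 lower, of which 5 were also called in the RFI. CYP3A4_2 and CYP2B6_1 passed under all of its 14 alternatives. The corn oil sets gave 0 to 1 calls with 1 animal left out (1 without control animal 2). The difference from PBO gave 2 calls on the centred scale and 1 to 2 with 1 animal left out (2 without control animal 1 or CPA animal 3). That from PB gave 9 centred, 3 against all controls of the vehicle, 1 in the series table, and 3 to 28 with 1 animal left out (3 without control animal 3, 28 without control animal 1, 26 without CPA animal 2, 6 without CPA animal 1). That from DHEA gave 8 centred, 3 in the series table and 4 to 27 (4 without control animal 3, 11 without CPA animal 1). The ratios gave 0 calls with the replicate block and 1 to 9 with 1 animal left out (1 without control animal 3, 2 without CPA animal 3). Among the named analytes, the calls of POR, CYP2C8, BCL2L1 and MAP2K4 and no other were lost with the replicate block. The block was fitted to the 6 animals alone. These calls were also lost in the 6-animal fit without the block, so their loss was not particular to the block. The call of beta-catenin P-T41/S45 was lost in the 6-animal fit without the block and kept with it. Over 41 named analytes and 14 alternatives, 24 values lost and 12 gained the call, and 28 of 565 changed sign, 27 of these with no call in either setting. On the centred scale these were MAP2K2 -0.0066, BAX -0.022, MAP3K7 -0.034, CYP4F2 -0.048, CYP1A2_2 -0.15, CDKN1B_P-T187 -0.17, CYP3A4_1 -0.18 and JUN -0.20. In the series table they were PRKACA_P-T197 -0.016, CYP3A4_1 -0.084, MAP3K7 -0.17, CDKN1B_P-T187 -0.22, CYP1A2_2 -0.23, JUN -0.26, CDKN1B -1.06 and CDKN1B_P-S10 0.71. With 1 animal left out the log2 fold changes ran from -0.097 to 0.21 for CYP3A4_1, -0.0094 to 1.87 for CYP2B6_3, -0.097 to 0.21 for CDKN1B_P-T187, -0.26 to 0.29 for JUN, -0.11 to 0.24 for CYP1A2_2, -0.42 to 0.10 for CYP3A5 and -0.11 to 0.40 for CYP4F2. The causes of these moves were not tested. Values near or below 0 RFI (GLUL, CYP2B6_3, CYP2E1_2 and ACTB) limit what can be said of those analytes.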

Other observations

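PDK1 was in no list and was picked here after its values were seen. It was 0.157, 0.224 and 0.176 RFI in CPA against 0.134, 0.103 and 0.128 RFI in controls, separated and not called (log2 fold change 0.60, limma adjusted p = 0.0814). In all, 28 analytes were in no list, and none of them was called.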
